A study of Homo sapiens with 4 samples.

Results

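The 48 genes described here encode the machinery of mitosis and its spindle: cyclins and the kinase CDK1, the other mitotic kinases, the spindle checkpoint, the kinetochore, motors, the proteolysis that ends mitosis, cytokinesis and chromosome structure. They were chosen as a list of G2/M genes by symbol, and all 48 were found among the 33538 genes of the count matrix. The cells were BT474, an established line from a human breast tumour with estrogen receptor and HER2 amplification. Each of 4 treatments gave 1 single-cell library after 4 h: 100 nM fulvestrant with 200 nM neratinib, 200 nM neratinib alone, 100 nM fulvestrant alone, and DMSO, the vehicle. Fulvestrant binds the estrogen receptor and causes its degradation, and neratinib irreversibly inhibits the kinases of the HER2 family. Per the series title, the study concerns BRD8 in resistance to blockade of both receptors. The cells are 1 line, so the results describe that line.

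Entry into mitosis depends on CDK1 bound to a B-type cyclin, which CDC25 phosphatases switch on by removing inhibitory phosphates. Kinetochores then tie chromosomes to spindle microtubules, and the spindle checkpoint holds the anaphase-promoting complex (APC/C), a ubiquitin ligase, until all are attached. Transcripts of these genes accumulate in late S phase and G2 and are low in G1, so their summed level in a population moves with the share of cells in G2 and mitosis as well as with the amount in each such cell. Many of their promoters carry a cell cycle homology region (CHR), read by the DREAM and MYB-MuvB complexes, beside CCAAT boxes bound by NF-Y.

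The promoter sequences below belong to the 2 genes with the highest and the 2 with the lowest ratio of neratinib to DMSO among those with an entry in the RefSeq promoter table. Each runs 5′ to 3′ from 250 bases before to 50 after a transcription start in build GRCh38.p14. Capitals mark TTTGAA, the CHR core, and CCAAT, in either orientation (TTCAAA and ATTGG on the other strand), and the motifs do not overlap here. CDC25C is shown at chr5:138331755-138332054 (minus strand), 1 of its 4 windows, ASPM at chr1:197146620-197146919 (minus strand), KPNA2 at chr17:68035485-68035784 (plus strand) and UBE2S at chr19:55407739-55408038 (minus strand).
CDC25C: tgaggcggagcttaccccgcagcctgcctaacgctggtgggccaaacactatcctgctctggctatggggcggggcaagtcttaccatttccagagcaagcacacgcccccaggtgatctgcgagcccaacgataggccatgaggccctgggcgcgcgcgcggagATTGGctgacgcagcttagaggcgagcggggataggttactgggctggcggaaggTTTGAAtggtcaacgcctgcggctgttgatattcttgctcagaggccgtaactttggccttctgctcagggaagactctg
ASPM: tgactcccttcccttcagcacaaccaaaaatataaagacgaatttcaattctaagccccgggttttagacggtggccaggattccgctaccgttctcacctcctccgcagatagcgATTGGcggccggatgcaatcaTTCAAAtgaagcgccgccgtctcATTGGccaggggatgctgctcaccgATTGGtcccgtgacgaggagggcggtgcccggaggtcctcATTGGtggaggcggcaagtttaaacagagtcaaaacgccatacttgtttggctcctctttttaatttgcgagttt
KPNA2: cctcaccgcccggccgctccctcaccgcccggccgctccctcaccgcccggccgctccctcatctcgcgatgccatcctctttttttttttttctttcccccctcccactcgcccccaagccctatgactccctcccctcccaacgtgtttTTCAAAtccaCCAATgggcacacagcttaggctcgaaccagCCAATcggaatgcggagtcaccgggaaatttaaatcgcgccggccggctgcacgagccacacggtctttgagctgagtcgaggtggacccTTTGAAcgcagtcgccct
UBE2S: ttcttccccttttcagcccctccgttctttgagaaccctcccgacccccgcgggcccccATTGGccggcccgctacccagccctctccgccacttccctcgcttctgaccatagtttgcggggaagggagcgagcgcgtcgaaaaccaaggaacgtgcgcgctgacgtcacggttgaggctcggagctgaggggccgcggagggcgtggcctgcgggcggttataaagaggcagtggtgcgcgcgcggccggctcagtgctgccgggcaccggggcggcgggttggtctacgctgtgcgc
TTTGAA stood in a window of 32 of the 42 mitotic genes with an entry (76.2%), against 13.4% of 9203 measured genes. CCAAT stood in 36 of the 42 (85.7%), against 43.8% of measured genes, and both motifs in 28 (66.7%), against 5.63%. In the S phase list used for comparison, TTTGAA was in 4 of 32 genes and CCAAT in 24. The genes that were higher with neratinib (described below) had TTTGAA in 6 of 6 entries and those that were lower in 5 of 7, while CCAAT was in 4 of 6 and 7 of 7. Of the windows shown, those of CDC25C and ASPM hold 1 TTTGAA each, that of KPNA2 holds 2 and that of UBE2S none.

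Cells were barcodes with at least 5000 UMIs (unique molecular identifiers, 1 for each captured transcript) and at least 500 genes. There were 3876 cells with both drugs, 3507 with neratinib, 3485 with fulvestrant and 4301 with DMSO, with median depths of 22007 to 23010 UMIs, and 23 cell barcodes occurred in 2 libraries. The median share of mitochondrial UMIs was 21.1% with both drugs and 21.1% with neratinib, against 16.7% with fulvestrant and 16.2% with DMSO. A ceiling of 20% on that share therefore kept 37.7% of cells with both drugs and 37.6% with neratinib, against 82.5% with fulvestrant and 85.4% with DMSO. Because the ceiling removes more cells from the libraries with neratinib, results are given over all cells, and then with the ceiling. The luminal markers KRT8, KRT18, KRT19, EPCAM and ERBB2 were at 220 CPM (UMIs scaled to a library total of 1e+06) or more in each library, and PTPRC, CD3E, COL1A2, PECAM1, KRT5 and KRT14, which mark other cell types, were at 0.02 CPM or less. Of the other markers, ESR1 was at 11.9 to 18.2 CPM, COL1A1, a collagen, at 10.2 to 12.4 CPM and VWF, an endothelial gene, at 1.72 to 2.44 CPM.

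The label of these genes as G2/M genes was checked in cells that were classed without them, from 23 other G2/M genes and 43 S phase genes. Summed over the 48 genes, G2/M cells held 11134 CPM with both drugs, 11614 with neratinib, 10910 with fulvestrant and 11080 with DMSO, whereas G1 cells held 596, 595, 618 and 631 CPM in the same order. The median gene was 29.4-fold higher in G2/M than in G1 cells with both drugs, 31.0-fold with neratinib, 39.3-fold with fulvestrant and 39.0-fold with DMSO. All 48 exceeded 2-fold in every library. BUB3, a checkpoint protein, varied least, at 2.63-fold, 2.77-fold, 2.42-fold and 2.24-fold in that order. The free RNA in barcodes of 10 to 99 UMIs held 5383, 5794, 5291 and 5307 CPM of these genes, so the G1 cells were far below it.

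Over all cells most of the 48 genes were not called in neratinib against DMSO, and the called ones lay in both directions. With 1 library per group there is no replicate error, and no test was run: intervals in square brackets are exact 95% intervals for 2 Poisson counts, on the log2 ratio of CPM, and cover counting error only. A gene is called higher or lower where its log2 ratio is 0.32 or more from 0, either way, with an interval off 0, which 13.6% and 33.3% of 12136 measured genes were in neratinib against DMSO. Of the 48 genes, 7 were higher (CDC25C, ASPM, HMMR, NDC80, TTK, NUF2 and CCNB2), 7 were lower (KPNA2, UBE2S, CDC20, CDC25B, CEP55, CDKN3 and SPC25) and 34 were neither. The number higher was close to the share of all measured genes, and the number lower was under it. Among 7239 genes with a mean of at least 10 CPM, a level that all 48 exceeded, the shares were 8.14% and 32.5%. The number higher was above that share. The median log2 ratio was 0.09, against -0.16 over all measured genes, and 38 of the 48 lay above that all-gene median. In such sums, fewer cells in G2/M and less RNA per cell cannot be told apart, and values within G2/M cells follow below. When libraries were scaled so that the median gene had a ratio of 0 (median-of-ratios scaling), 16 of the 48 were higher and 4 lower, against 21.3% and 20.5% of all genes. With the mitochondrial ceiling 35 were higher and 0 lower, against 13.6% and 29.3%. The even split thus depended on the scaling and on the ceiling. Nearest the threshold, CCNB2 (0.34) and SPC25 (-0.34) were inside it, and TOP2A (0.29) and ECT2 (-0.27) outside.

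Calls in both directions were also present in the pair that shares no library with the first, both drugs against fulvestrant. There 6 of the 48 were higher and 7 lower, against 13.8% and 32.4% of all measured genes, with a median of -0.00, against -0.15 over all. The 7 lower genes were the same 7, with ratios of -0.71 to -0.43, and the 6 higher were the earlier 7 less CCNB2, which had 0.17 [0.12, 0.22]. None of the other 34 genes was called in this pair. The share of all measured genes whose calls repeated between these pairs was not computed. Whether the repeat is particular to the 48 genes was therefore not tested. With median-of-ratios scaling, 11 were higher and 6 lower, against 21.7% and 20.7% of all measured genes.

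**Figure D1:**
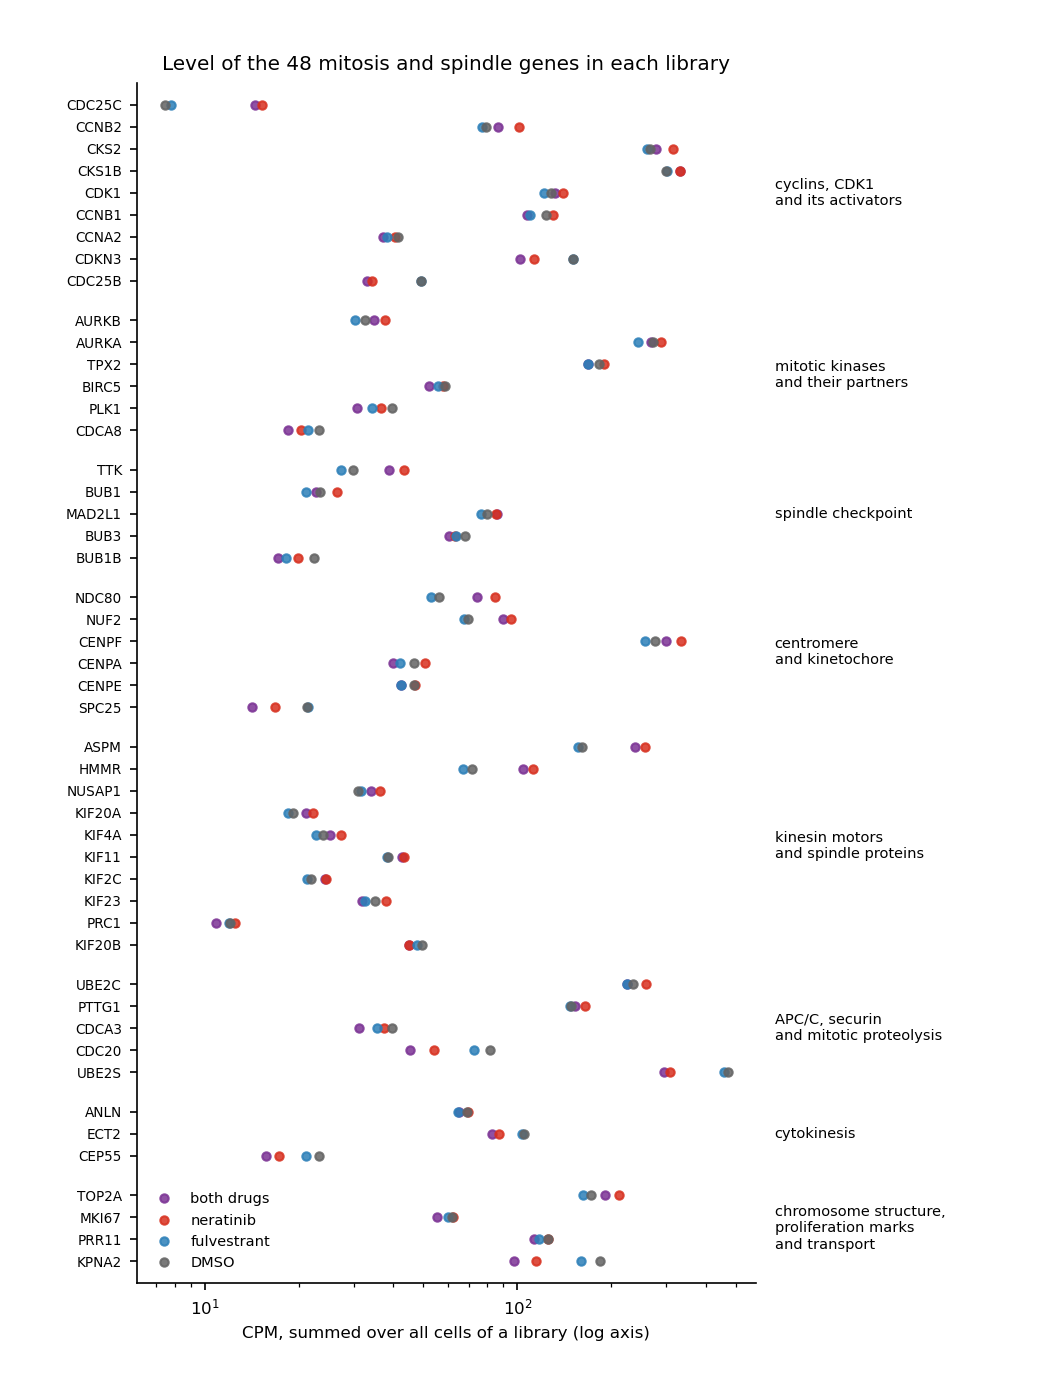
Level of each of the 48 genes in the 4 libraries, as CPM over all cells on a log axis, grouped by role and ordered in each group by the ratio of neratinib to DMSO. Points of both drugs and neratinib lie together and apart from those of fulvestrant and DMSO for CDC25C, ASPM and HMMR (to the right) and for KPNA2, UBE2S and CDC25B (to the left), while CCNB1 and MKI67 have all 4 points close together.

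Among the cyclins, CDK1 and its activators, the CDC25 phosphatases lay on opposite sides. CDC25C, which removes the inhibitory phosphates of CDK1 at mitotic entry, was at 14.4 CPM with both drugs and 15.2 CPM with neratinib, against 7.81 CPM with fulvestrant and 7.43 CPM with DMSO. Its ratio of neratinib to DMSO was 1.04 [0.91, 1.17], the highest of the 48. CDC25B, which activates CDK1 at the centrosome, was at 33.0, 34.2, 49.1 and 49.3 CPM in that order, with a ratio of -0.53 [-0.60, -0.46]. For both phosphatases the libraries with neratinib lay on one side of those without it. CCNB2, a B-type cyclin, was at 86.9, 101, 77.2 and 79.5 CPM, with 0.34 [0.30, 0.39]. CDKN3, a phosphatase that dephosphorylates CDK kinases, was at 102, 113, 150.4 and 151 CPM, with -0.42 [-0.46, -0.38]. CCNB1, the main mitotic cyclin, stayed inside the threshold at 108, 129.7, 109.5 and 124 CPM (0.07 [0.03, 0.10]). CDK1 itself had 132, 139.6, 122 and 128 CPM (0.12 [0.09, 0.16]), and CKS1B, a CDK-binding subunit, had 332, 332, 300.4 and 299 CPM (0.15 [0.13, 0.18]). Neither was called, and CCNA2, cyclin A2, had -0.03 and CKS2, another CDK-binding subunit, 0.24.

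None of the 6 mitotic kinases and their partners was called in neratinib against DMSO. Of all measured genes, 13.6% were higher and 33.3% lower in that pair. AURKA, the centrosomal Aurora kinase, was at 268 CPM with both drugs, 289 with neratinib, 243 with fulvestrant and 273 with DMSO, a ratio of neratinib to DMSO of 0.09 [0.06, 0.11]. PLK1, the polo-like kinase needed for centrosome maturation and cytokinesis, was at 30.7, 36.6, 34.3 and 39.7 CPM, with -0.12 [-0.19, -0.05]. These levels overlap between libraries with and without neratinib. AURKB, the kinase of the chromosomal passenger complex, had the highest ratio of the group, 0.21 [0.14, 0.28], and CDCA8, the borealin subunit of that complex, the lowest, -0.20 [-0.29, -0.11]. BIRC5, the survivin subunit, had -0.02 [-0.07, 0.04] and TPX2, the activator of AURKA on the spindle, 0.05 [0.02, 0.09].

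In the spindle checkpoint 1 of 5 genes was called, as higher, against 13.6% of all measured genes. TTK, the MPS1 kinase that starts checkpoint signalling at kinetochores, was at 38.7 CPM with both drugs and 43.3 with neratinib, against 27.2 with fulvestrant and 29.7 with DMSO, a ratio of neratinib to DMSO of 0.54 [0.47, 0.61]. BUB1, a kinase that recruits other checkpoint proteins, was at 22.6, 26.5, 21.1 and 23.4 CPM (0.18 [0.10, 0.26]). MAD2L1, whose product MAD2 inhibits the APC/C activator CDC20, had 0.10 [0.05, 0.14], BUB3 -0.10 [-0.15, -0.05] and BUB1B, the BUBR1 component of the same inhibitor, -0.17 [-0.26, -0.07].

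At the centromere and kinetochore, subunits of 1 complex were on opposite sides over all cells. NDC80, NUF2 and SPC25 encode parts of the NDC80 complex, which holds microtubules at the outer kinetochore. NDC80 was at 74.4 CPM with both drugs and 85.1 with neratinib, against 53.0 with fulvestrant and 56.0 with DMSO, a ratio of neratinib to DMSO of 0.60 [0.55, 0.65]. NUF2 was at 89.8, 95.5, 67.4 and 69.5 CPM, with 0.46 [0.41, 0.50]. SPC25 was at 14.2, 16.8, 21.4 and 21.2 CPM, with -0.34 [-0.43, -0.24], and -0.60 [-0.70, -0.49] for both drugs against fulvestrant. SPC25 was called lower in neither G2/M cells (-0.21) nor cells under the ceiling (-0.066 [-0.19, 0.058]) in neratinib against DMSO, and in both of these in both drugs against fulvestrant (-0.43 and -0.52). CENPF, a large protein of the outer kinetochore and nuclear matrix, was at 299, 334, 256 and 277 CPM (0.27 [0.25, 0.29]). CENPA, the centromeric histone H3 variant, had 0.11 [0.05, 0.17], and CENPE, a kinetochore kinesin, 0.01 [-0.05, 0.07].

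The kinesin motors and spindle proteins held 2 higher genes and no lower one, against 13.6% and 33.3% of all measured genes. ASPM, a protein of spindle poles, was at 238 CPM with both drugs and 256 with neratinib, against 156 with fulvestrant and 161 with DMSO, with a ratio of neratinib to DMSO of 0.66 [0.63, 0.69]. HMMR, a spindle-associated hyaluronan receptor, was at 104, 113, 67.0 and 71.6 CPM, with 0.65 [0.61, 0.70]. The libraries with neratinib were above those without it for both. KIF11, the motor that pushes spindle poles apart, was at 42.7, 43.4, 38.2 and 38.7 CPM and was not called, with 0.17 [0.10, 0.23]. The other 7 of this group lay between -0.14, for KIF20B, a kinesin of late mitosis, and 0.23, for NUSAP1, a microtubule-bundling protein.

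In the group of the APC/C, securin and mitotic proteolysis, 2 of 5 genes were lower, against 33.3% of all measured genes. UBE2S, which extends ubiquitin chains on APC/C substrates, was at 296 CPM with both drugs and 308 with neratinib, against 458 with fulvestrant and 472 with DMSO, a ratio of neratinib to DMSO of -0.61 [-0.64, -0.59]. CDC20, the activator of the APC/C at metaphase, was at 45.4, 54.1, 72.7 and 81.9 CPM, with -0.60 [-0.65, -0.54]. UBE2C, the enzyme that starts the chains which UBE2S extends, was at 224, 258, 224 and 234 CPM, and its 0.14 [0.12, 0.17] was not called. PTTG1, securin, the inhibitor of separase, had 0.14 [0.11, 0.17], and CDCA3, a partner of a ligase that targets WEE1 at mitotic entry, -0.09 [-0.15, -0.02].

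Of the 3 cytokinesis genes, CEP55, which recruits the abscission machinery to the midbody, was lower, as 33.3% of all measured genes were. It was at 15.7 CPM with both drugs and 17.2 with neratinib, against 21.1 with fulvestrant and 23.2 with DMSO (-0.43 [-0.53, -0.34] for neratinib against DMSO). ECT2, the exchange factor that activates RhoA at the cleavage furrow, had -0.27 [-0.31, -0.22] and ANLN, an actin-binding furrow protein, 0.01 [-0.04, 0.06]. KPNA2, importin alpha 1, a nuclear import receptor that also holds spindle factors, had the lowest ratio of the 48. It was at 97.6 CPM with both drugs and 114 with neratinib, against 160.1 with fulvestrant and 184 with DMSO, a ratio of -0.69 [-0.73, -0.65]. TOP2A, the topoisomerase that untangles sister chromatids, was at 191, 211, 162 and 172 CPM (0.29 [0.26, 0.32]). MKI67, the proliferation antigen Ki-67, was at 55.3, 62.4, 60.1 and 61.7 CPM (0.02 [-0.04, 0.07]), and PRR11, a cell cycle gene of chromosome 17, had 0.01 [-0.03, 0.04].

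Genes of both directions were also called when only G2/M cells were summed. In 974 G2/M cells with neratinib against 1169 with DMSO, 7 of the 48 were higher and 6 lower, against 10.4% and 31.1% of 11848 measured genes, with a median of 0.11, against -0.16. In 944 G2/M cells with both drugs against 892 with fulvestrant, 6 were higher and 7 lower, against 10.2% and 29.7%, with a median of 0.04, against -0.16. SPC25 was the earlier lower gene that was not called in the first of these pairs, at -0.21 [-0.33, -0.09]. In G2/M cells, CDC25C was at 32.2 CPM with both drugs and 33.9 with neratinib, against 19.4 with fulvestrant and 18.1 with DMSO (0.90 [0.75, 1.05] for neratinib against DMSO). ASPM was at 626, 638, 412 and 409.7 CPM (0.64 [0.61, 0.67]), and UBE2S at 722, 720.0, 1070.2 and 1053 CPM (-0.55 [-0.57, -0.52]). CDC20 was at 132, 144, 204 and 215 CPM (-0.58 [-0.63, -0.52]). In these genes the libraries with and without neratinib stayed apart. The 23 genes that served to class the cells were themselves not fixed, running from -0.96 for TUBB4B, a beta tubulin, to 0.82 for HMGB2, a chromatin protein, in neratinib against DMSO, and their part in the class and in these values was not tested.

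**Figure D2:**
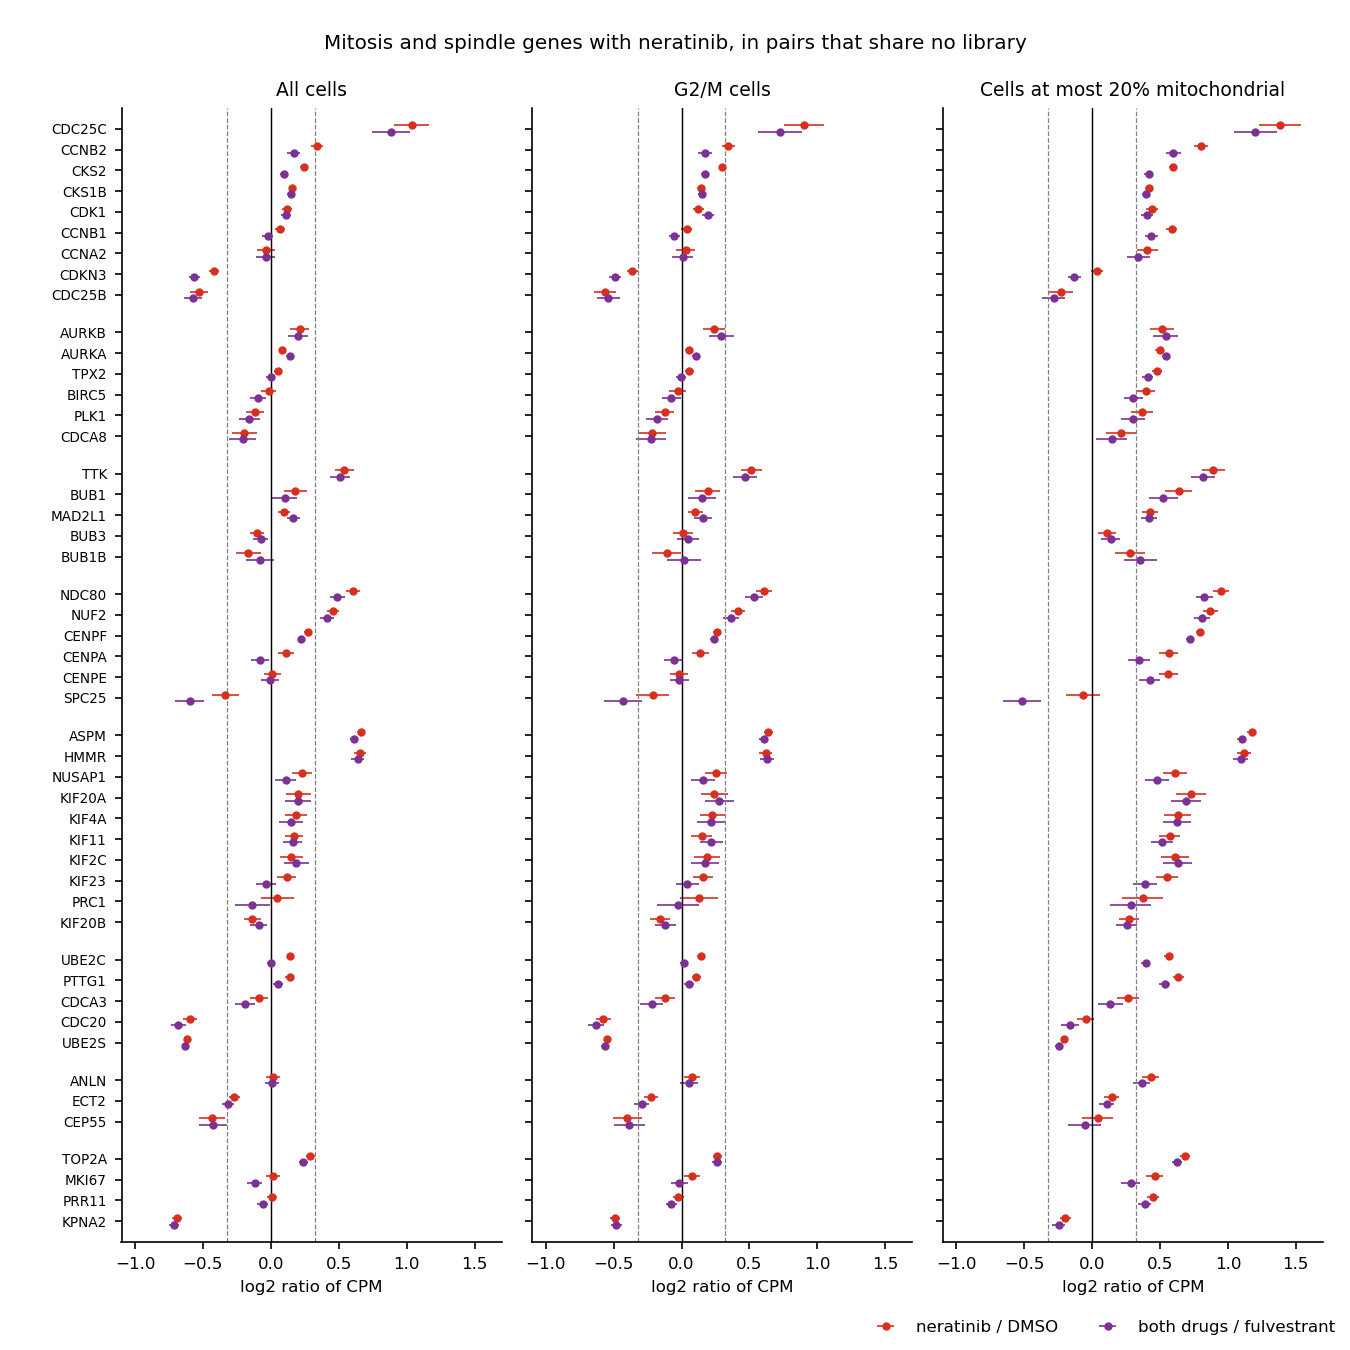
Log2 ratios of CPM with 95% counting intervals for neratinib over DMSO and both drugs over fulvestrant, over all cells, in G2/M cells, and in cells of at most 20% mitochondrial UMIs. Dashed lines mark a log2 ratio of 0.32 either way. Over all cells and in G2/M cells genes lie on both sides, from CDC25C at 1.04 to KPNA2 at -0.69 over all cells, and in cells under the ceiling most points lie to the right of 0.

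The G2/M cells of all libraries together were also cut into 3 equal parts by their score on the 23 other genes. The same cuts served each library, so the cells of 1 library need not be spread equally over the parts. The median ratio of the 7 higher genes in neratinib against DMSO was 0.68 in the lowest part, 0.55 in the middle and 0.41 in the highest, and that of the 7 lower genes was -0.53, -0.69 and -0.42. In both drugs against fulvestrant, which did not choose them, the higher genes had medians of 0.65, 0.49 and 0.60 and the lower genes -0.57, -0.57 and -0.37. Outside G2/M the directions were the same in S cells, with medians of 0.71 and -0.78 in neratinib against DMSO and 0.71 and -0.78 in both drugs against fulvestrant. In G1 cells, where counts are low, the medians were 1.16 and -0.31, and 1.08 and -0.67. Of the 7 higher genes, NDC80 (0.05 [-0.52, 0.62]) and CCNB2 (0.30 [0.10, 0.50]) were not called there in both drugs against fulvestrant. Of the 7 lower genes, CEP55 lay above 0 in G1 cells in both pairs (0.29 and 0.14), and the others lay below 0. SPC25, at a mean of 0.43 CPM, was under the minimum for a measured gene, and CDC20 (-0.21) and CDC25B (-0.31) were not called in neratinib against DMSO. The lowest ratio of a mitotic gene in G1 cells of neratinib against DMSO was that of KPNA2, -2.08, with 401 UMIs in neratinib cells and 1975 in DMSO cells. Levels are per UMI at the 3′ end and are not compared between genes.

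Single cells showed the shift in balance. For each G2/M cell with at least 20 UMIs of the 14 divided genes (the 7 called higher and the 7 called lower over all cells in neratinib against DMSO), the share that came from the 7 higher genes was taken. Its median was 52.6% with both drugs (quartiles 45.3% and 60.0%, 842 cells) and 52.9% with neratinib (46.2% and 59.7%, 865 cells), against 34.1% with fulvestrant (29.1% and 40.0%, 779 cells) and 34.2% with DMSO (28.6% and 40.2%, 1035 cells). The higher genes outnumbered the lower ones in 58.2% [54.8, 61.6] of cells with both drugs and 60.5% [57.1, 63.7] with neratinib, against 5.91% [4.36, 7.80] with fulvestrant and 2.61% [1.73, 3.77] with DMSO (exact binomial intervals, counting error only). The 14 genes were chosen on the neratinib and DMSO libraries, so only the other pair is independent of the choice, and its quartile ranges did not overlap. The share pools UMIs over genes, so genes with many UMIs weigh more than those with few. In G2/M cells with DMSO, CDKN3 gave 12439 UMIs and SPC25 gave 1343.

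**Figure D3:**
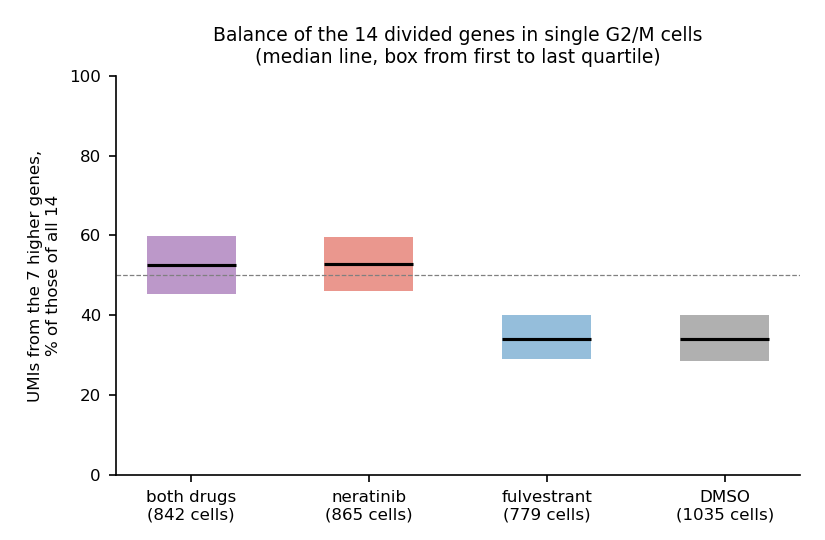
Percentage of the UMIs of the 14 divided genes that came from the 7 higher ones, in G2/M cells with at least 20 such UMIs. Lines are medians and boxes run between the quartiles, at 52.6% with both drugs and 52.9% with neratinib, against 34.1% with fulvestrant and 34.2% with DMSO.

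Detection at a fixed depth was read for CDC25C and KPNA2, which had the highest and the lowest ratio of neratinib to DMSO. It uses the same UMIs, so its direction in that pair was set by this choice. With each cell thinned to 5000 UMIs, CDC25C had a UMI in 12.2% of G2/M cells with both drugs and 14.2% with neratinib, against 8.0% with fulvestrant and 7.7% with DMSO. In G1 cells, which should hold little of it, the shares were 0.6%, 0.7%, 0.2% and 0.2%. Unthinned, at median depths of 30108 to 30862 UMIs in G2/M cells and 19691 to 20474.5 in G1 cells, the G2/M shares were 52.4%, 52.7%, 37.3% and 37.1%. KPNA2 had a UMI in 49.6%, 55.4%, 61.7% and 66.7% of thinned G2/M cells and in 6.1%, 5.3%, 18.3% and 18.99% of thinned G1 cells.

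The share of cells in G2/M depended on which cells were counted. Over all cells it was 24.4% [23.01, 25.7] with both drugs, 27.8% [26.3, 29.3] with neratinib, 25.6% [24.2, 27.1] with fulvestrant and 27.2% [25.9, 28.5] with DMSO. With the ceiling it was 33.6% [31.2, 36.1], 38.8% [36.2, 41.5], 26.1% [24.5, 27.7] and 27.2% [25.8, 28.7] in the same order. In each library's cells up to its median mitochondrial share, a choice added after the data were seen, it was 31.4%, 36.3%, 30.0% and 32.0%. When each cell was thinned to 5000 UMIs before classing, the shares were 23.8%, 26.2%, 29.2% and 30.3%, so that neratinib lay below DMSO there and above it with the ceiling. Over all cells the intervals of neratinib and DMSO overlapped. Between 9.86% and 10.8% of all cells lay within 0.05 of the cut in score. Cells with at least 25 UMIs of the 48 genes per 5000 made up 21.5%, 24.6%, 22.3% and 24.6% over all cells and 32.1%, 36.3%, 24.6% and 25.9% with the ceiling.

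**Figure D4:**
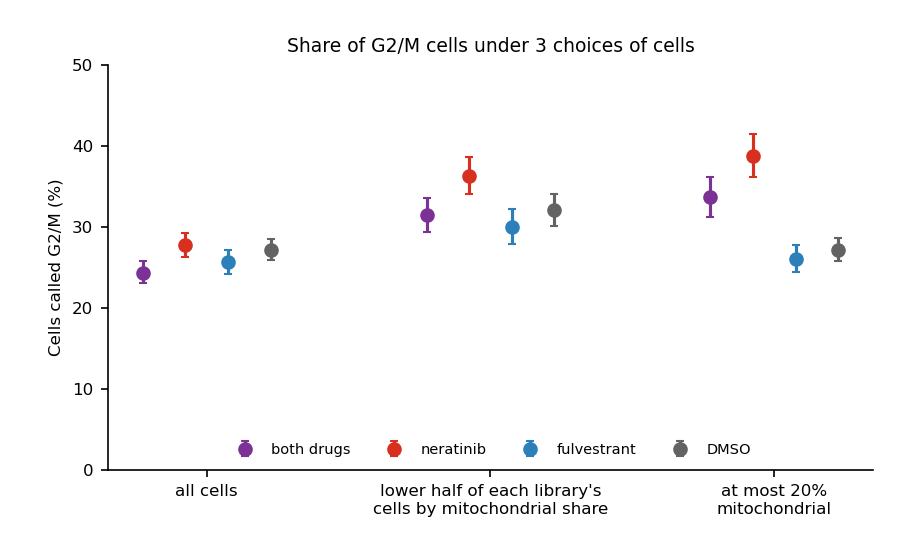
Percentage of cells called G2/M, with exact 95% binomial intervals, in all cells, in the cells of each library up to its median mitochondrial share, and in cells of at most 20% mitochondrial UMIs. The 4 libraries lie between 24.4% and 27.8% in the first set, and both drugs and neratinib lie above fulvestrant and DMSO in the last.

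With the ceiling, most of the 48 genes were higher in neratinib against DMSO and in both drugs against fulvestrant. In neratinib against DMSO, 35 of 48 were higher and 0 lower, against 13.6% and 29.3% of 12123 measured genes, with a median of 0.49, against -0.13 over all. In both drugs against fulvestrant, 32 were higher and 1, SPC25, was lower, against 14.2% and 27.9%, with a median of 0.40, against -0.11. CCNB1 was then at 162 CPM with both drugs and 197 with neratinib, against 120.0 with fulvestrant and 131 with DMSO, and ASPM at 357, 382, 167 and 169 CPM. In both drugs against DMSO, 24 were higher and 2 lower, against 15.6% and 28.7%. The 7 genes that were lower over all cells lay between -0.23 and 0.04 in neratinib against DMSO. Within G2/M cells and with the ceiling the same sets had median ratios of 0.64 for the 7 higher and -0.38 for the 7 lower genes in neratinib against DMSO. Of all 48, 10 were higher and 4 lower there, against 10.6% and 27% of all measured genes.

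The summed level of the 48 genes differed with the mitochondrial share of the cell. Between 15% and 20% it was 6207 CPM with both drugs and 6713 with neratinib, against 3923 with fulvestrant and 4052 with DMSO. Between 20% and 25% it was 3569 and 3877 CPM, against 2553 and 2702 CPM. Above 25% the order changed, with 2020 and 2178 CPM (median depths of 18404 and 19108 UMIs), against 2317 and 3097 CPM (10369 and 10014 UMIs). Between 10% and 15% neratinib had 8288 CPM in 117 cells and both drugs 6363 CPM in 160 cells, against 6359 CPM with fulvestrant and 6268 CPM with DMSO. Over all cells the sums were 4426, 4843, 4431 and 4676 CPM in the order both drugs, neratinib, fulvestrant, DMSO and with the ceiling 6245, 6833, 4753 and 4931 CPM. The part of the mitochondrial share and of depth in these differences was not tested.

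**Figure D5:**
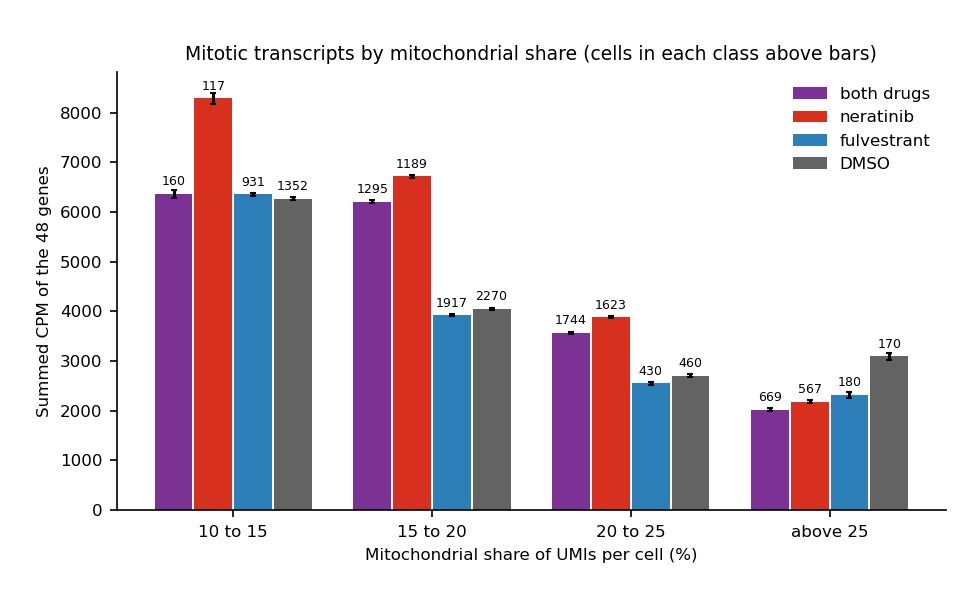
Summed CPM of the 48 genes in cells grouped by mitochondrial share, with 95% Poisson intervals and the number of cells above each bar. Between 15% and 20% the bars of both drugs (6207) and neratinib (6713) stand above those of fulvestrant (3923) and DMSO (4052), and in all 4 libraries the bars at 20% to 25% are lower than those at 15% to 20%. Cells of at most 10%, 8 to 49 in a library, are left out.

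Fulvestrant against DMSO took none of the 48 genes past the threshold, which few genes of any kind passed. In that pair, 0 were higher and 0 lower, against 1.23% and 1.8% of all measured genes. In both drugs against neratinib 0 were higher and 1, CENPA, was lower, against 1.57% and 2% of all. Of the ratios, 44 of 48 lay below 0 in the first pair and 46 in the second. The median was -0.08 in fulvestrant against DMSO, against 0.00 over all genes, and -0.14 in both drugs against neratinib, against 0.01 over all. CENPA was at 39.9 CPM with both drugs and 50.5 with neratinib, a ratio of -0.34 [-0.40, -0.28], and at 42.3 with fulvestrant and 46.8 with DMSO, a ratio of -0.15 [-0.21, -0.09]. The lowest ratio of fulvestrant to DMSO was that of BUB1B, -0.30 [-0.39, -0.21], at 18.1 against 22.3 CPM, and the same gene had -0.22 [-0.32, -0.11] in both drugs against neratinib. PLK1 had -0.21 and -0.26 in these pairs, KPNA2 -0.20 and -0.23, and CCNB1 -0.18 and -0.27. Within G2/M cells the medians were -0.04 and -0.06, and no gene was called in either pair, against 1.77% higher and 2.36% lower in the first and 2.24% and 2.35% in the second. With G1, S and G2/M cells weighted as in DMSO, the medians over all cells were -0.02 and -0.05.

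In both drugs against DMSO over all cells, more of the 48 genes were lower than higher, as was so among all measured genes. With the ceiling, as given above, 24 were higher and 2 lower. Of the 48, 6 were higher and 12 lower, against 14.9% and 33.3% of all measured genes. The median was -0.10, against -0.15 over all. With median-of-ratios scaling 6 were higher and 7 lower, against 22.97% and 21.88% of all measured genes. Both numbers were under those shares, and with that scaling more of all measured genes were higher than lower. Without it, the genes added among the 12 lower were PLK1 (-0.37), BUB1B (-0.38), CDCA3 (-0.36), CDCA8 (-0.33) and ECT2 (-0.34). KPNA2 had -0.92 [-0.95, -0.88] and CDC20 -0.85 [-0.91, -0.80], their furthest values from 0 in any pair over all cells. Within G2/M cells, 6 were higher and 8 lower, against 11.7% and 30.8%. The departure from additivity was the ratio with both drugs minus the sum of the single-drug ratios, on the log2 scale. Over all cells its median was -0.05 over the 48 genes, against 0.01 over all measured genes. Its approximate 95% counting interval was off 0 in 21 of the 48, against 21.4% of all genes. In G2/M cells the median was -0.04, against 0.00, with 13 of 48 off 0, against 12.6% of all genes. Whether an interval is off 0 depends on counts, and all 48 genes lay well above the minimum for a measured gene. These shares therefore do not compare the size of departures. Over all cells the 48 departures ran from -0.26 to 0.08, inside the size threshold for a call. Of 12136 measured genes, 411 passed that size with an interval off 0, which genes of low counts can do by counting error. With the ceiling the departures ran from -0.45 [-0.63, -0.27], for SPC25 and past that size, to 0.07. There 20 of the 48 intervals were off 0, against 17.4% of all genes, and 486 of 12123 measured genes passed that size. The lowest departures in G2/M cells were those of SPC25, -0.22 [-0.40, -0.04], and CENPA, -0.20 [-0.29, -0.10].

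Other genes of the cell cycle were read from lists for comparison. Among 49 further mitotic genes, 5 were higher and 9 lower in neratinib against DMSO, with a median of -0.11, against 13.6%, 33.3% and -0.16 over all measured genes. MXD3, a MAX-binding repressor, had 1.11 [1.04, 1.18] and CENPQ, a centromere subunit, 0.89 [0.80, 0.98], while TUBG1, gamma tubulin, had -1.29 [-1.36, -1.21] and CENPI, another centromere subunit, -0.82 [-1.12, -0.53]. Of 42 measured S phase genes, 0 were higher and 14 lower, with a median of -0.25, and the number lower was at the share of all genes (33.3%). RRM2, a ribonucleotide reductase subunit, had -1.34 [-1.43, -1.26] and CCNE2, cyclin E2, -1.07 [-1.16, -0.97], and the highest were RPA2, a replication protein A subunit, at 0.25 and RAD51AP1, a recombination factor, at 0.20. Of 38 measured regulators, 2 were higher and 12 lower, with a median of -0.14, and both the number lower and the median were close to those of all genes (33.3% and -0.16). CDC25A, the S phase member of the CDC25 family, was at 2.38 CPM with both drugs and 2.60 with neratinib, against 6.13 with fulvestrant and 6.62 with DMSO, a ratio of neratinib to DMSO of -1.35 [-1.57, -1.12]. CDKN1A, the CDK inhibitor p21, had -1.04 [-1.20, -0.88], and RBL2, the p130 subunit of DREAM, and CDKN1B, the CDK inhibitor p27, were higher at 0.45 [0.36, 0.54] and 0.36 [0.30, 0.41]. In fulvestrant against DMSO none of these lists had a called gene. Their ends were FAM83D (-0.18), OIP5 (-0.16), STMN1 (0.08) and PLK4 (0.14) among the mitotic genes, UNG (-0.06), POLA1 (-0.06), EXO1 (0.26) and CDC6 (0.26) among S phase genes, and ANAPC7 (-0.15), E2F4 (-0.14), MASTL (0.13) and CDKN1A (0.21) among regulators.

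Transcript features of the divided genes overlapped. The GC content of the longest coding transcript had a median of 40.1% (36.7% to 46.5%) in the 7 higher genes, 46.0% (40.0% to 59.3%) in the 7 lower and 44.3% (34.2% to 57.3%) in the other 34, against 47.8% over 7133 genes of at least 10 CPM. Of the 48 genes, 10 have processed copies of like name in the GENCODE annotation that the count matrix does not list, among them KPNA2, UBE2S, CDC20, CCNB2, CKS1B and UBE2C, so the counts of these may miss or include shared reads.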

How the data were processed

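Single-cell libraries of BT474 cells after 4 treatments were compared, 1 per group, so no test of groups was run and all intervals cover counting error only. The authors deposited unfiltered whole-number UMI counts, and the submitters' processing notes list Cell Ranger 3.1.0 and hg19, whereas the gene identifiers match a GRCh38 annotation; coordinates printed are those of the RefSeq promoter table only. Barcode suffixes were matched to the number that opens each sample title. The UMIs in cells were 91091724 with both drugs, 82967775 with neratinib, 83642623 with fulvestrant and 102504452 with DMSO.

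Cells had at least 5000 UMIs and 500 genes. Counts were summed per library and divided by their total to CPM, and a gene with a mean of at least 1 CPM counted as measured. Each pair was compared as a log2 ratio with the exact conditional binomial interval. G1, S and G2/M cells were called with the scanpy 1.11.5 gene score (counts scaled to 10000 per cell, natural log of 1 plus the value) from lists without the 48 genes. Doublets were kept and no caller was run; an alternative leaves out the cells above the 95th percentile of UMIs. The calculations were tested on simulated counts. Alternatives were the 20% mitochondrial ceiling, other scaling, depth and CPM minimums, G2/M calls and class weights.

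The 48 genes and all lists were chosen with earlier results of these data known. Named were 15 genes of fixed interest, in each role the member with the highest CPM and the highest and lowest ratio of neratinib to DMSO, and in the comparison lists the 2 highest and 2 lowest ratios; the called genes HMMR, NUF2, CCNB2, CDC20 and CDKN3 and the other members with values were named after their values were seen.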

Additional observations from a re-analysis of the deposited data

How the results depend on the processing

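No paired analysis was possible because each group was 1 library. Of the 60 alternative medians, 38 moved by less than the median counting error, and 22 moved by more; the cause was not tested. With the 20% mitochondrial ceiling the medians over all cells were 0.49 (neratinib against DMSO), 0.33 (both drugs against DMSO) and 0.40 (both drugs against fulvestrant), and within G2/M cells 0.17, 0.11 and 0.13. With median-of-ratios scaling they were 0.26, 0.053 and 0.15 over all cells and 0.27, 0.15 and 0.20 within G2/M cells. With mitochondrial UMIs left out of CPM they were 0.18, -0.013 and 0.073. With class weights as in DMSO they were -0.0054 (both drugs against DMSO), -0.048 (both drugs against neratinib) and -0.020 (fulvestrant against DMSO). In cells up to their library's median mitochondrial share, chosen after seeing the data, they were 0.15 (neratinib against DMSO) and -0.0028 (both drugs against DMSO). With G2/M cells taken as the top 25% by share of the non-member genes, medians were 0.10 (both drugs against DMSO) and 0.16 (both drugs against fulvestrant). With that choice 11 and 10 genes were higher in neratinib against DMSO and both drugs against fulvestrant, and shares of all genes were not computed. The minimum of 10000 UMIs and both CPM minimums left every median within that error.

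The G2/M share moved to 33.6% (both drugs) and 38.8% (neratinib) with the ceiling, to 22.0% and 25.2% with the top-25% call, to 26.2% (neratinib), 29.2% (fulvestrant) and 30.3% (DMSO) with thinning, to 21.4%, 25.4%, 22.99% and 24.5% (both drugs, neratinib, fulvestrant, DMSO) without the top 5% of cells by UMIs, and to 31.4%, 36.3%, 30.0% and 32.0% in cells up to the median mitochondrial share.

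The ceiling turned the sign of 2 called genes in neratinib against DMSO, CDKN3 (0.037) and CEP55 (0.041). Within G2/M cells, median-of-ratios scaling gave 16 higher genes in neratinib against DMSO and 16 higher with 4 lower in both drugs against fulvestrant, and the ceiling gave 12 higher in the second. In both drugs against DMSO, 24 genes were higher and 2 lower with the ceiling over all cells, against 15.6% and 28.7% of all genes. In that pair 7 were lower without mitochondrial UMIs (26.4% of all genes) and in cells up to the median mitochondrial share (31.9%). Within G2/M cells 11 were higher with the ceiling and 15 with median-of-ratios scaling. In both drugs against neratinib, 2 were lower with the ceiling (2.00% of all genes) and in cells up to the median mitochondrial share (2.01%), and 1 within G2/M cells with the ceiling. For the counts within G2/M cells in this paragraph, shares of all genes were not computed. Of the values of single named genes under the alternatives, 125 stayed within counting error, 89 moved by more and the 2 above changed sign. The 125 include those under both changed CPM minimums, which could not move. Culture-to-culture variation was not measured, and a phase call rests on transcripts alone.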
